A study of Homo sapiens with 9 samples.

Results

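Interferon-stimulated genes were followed in A375 cells, a human melanoma cell line with a mutant BRAF gene, after treatment with the bromodomain inhibitor TP-472, which binds BRD9 and BRD7. The 43 genes are a list of interferon-induced effectors, RNA and DNA sensors and components of interferon signaling. They were chosen by name, with earlier results of these data known. All 43 were present in the count table of 26475 gene symbols, and 41 of them were among the 16417 genes with enough counts to be tested. Cells were treated for 24 h with DMSO, the vehicle, or with 5 μM or 10 μM TP-472, and mRNA was sequenced from 3 biological replicates per group. The experiment used 1 cell line and 1 time point, so each p-value measures the spread between these cultures only. Levels are given as CPM, the share of a library's counts on a fixed scale, with TMM, a method that corrects for differences in library composition, and changes as log2 fold changes with their standard error (SE). A gene was called when its Benjamini-Hochberg adjusted p in edgeR's quasi-likelihood test was under 0.05.

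Interferons are secreted proteins that warn cells of infection. Type I interferons bind a receptor that contains IFNAR1 and activate a complex of STAT proteins with IRF9, which binds interferon-stimulated response elements (ISREs) in promoters, whereas type II interferon binds a receptor that contains IFNGR1 and acts mainly through STAT dimers at gamma-activated sites. The induced proteins block steps of viral replication, sense foreign nucleic acid or feed back on the pathway, and many are expressed at a basal level in tumor cells without added interferon.

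The libraries held 42483091 to 51298130 counts, and genes of ribosomal RNA took 8.2% to 19.9% of them. The library of 10 μM replicate 1 stood apart from its group, so results are also given without it. Among the 41 tested members, 8 were over 0.5 log2 units higher in this library than the mean of replicates 2 and 3, and 7 were over 0.5 lower. The deviation fell with the summed exon length of the gene (Spearman rho = -0.71 over 41 genes of the same libraries, a description). Short genes such as BST2 (1.58 higher) and IFITM2 (0.98 higher) lay on one side and long genes such as PARP14 (0.93 lower) and OAS3 (0.63 lower) on the other. Melanocyte lineage markers were partly retained, with SOX10 between 363 and 426 CPM and MITF between 23.3 and 35.9 CPM, whereas TYR was at 0 in every library and DCT did not pass 0.0192 CPM. Of the leukocyte markers, CD3E stayed below 0.1 CPM in every library, PTPRC did not pass 0.537 CPM, ITGAM was called higher at 10 μM (0 to 0.121 CPM in DMSO and 0.204 to 1.43 at 10 μM, adjusted p = 0.0352) and CD14 lay above DMSO there without a call (0.103 to 0.362 and 0.367 to 1.01 CPM). Over the leukocyte list the summed level was 6.09 to 6.62 CPM in DMSO, 5.5 to 6.32 at 5 μM and 5.46 to 8.59 at 10 μM, most of it from LYZ. The 4 endothelial markers summed to 4.16 to 5.56, 5.67 to 9.35 and 10.3 to 16.3 CPM, largely through KDR, and the 4 keratinocyte markers to 49.4 to 56.7, 62 to 65.9 and 67.1 to 97.7 CPM, largely through KRT10. The 4 fibroblast markers summed to 6.2 to 7.33, 6.27 to 7.37 and 3.18 to 4.73 CPM. The part of these shifts in the results was not tested.

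**Figure D1:**
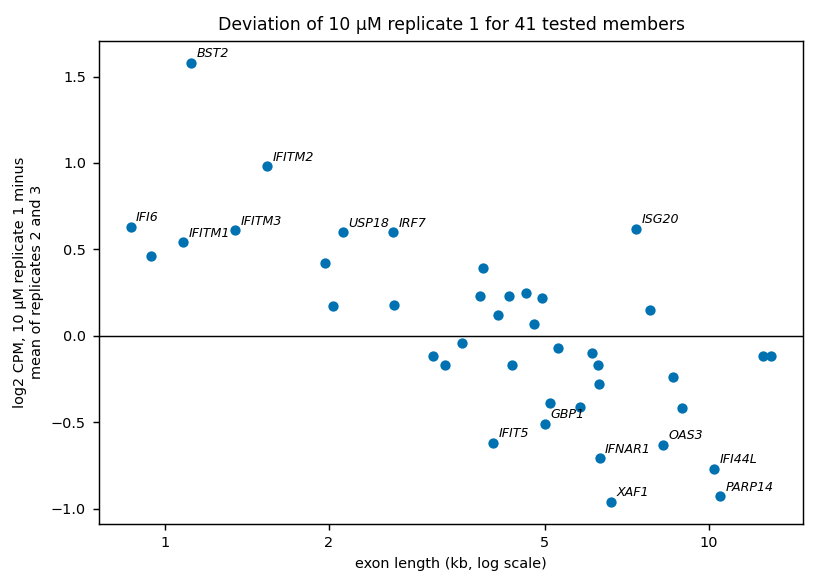
Deviation of 10 μM replicate 1 from the mean of 10 μM replicates 2 and 3 (log2 CPM, vertical axis) against summed exon length (kb, log scale) for the 41 tested members, 1 point per gene, with names where the deviation passes 0.5. Short genes such as BST2 and IFITM2 lie above the zero line and long genes such as PARP14 and XAF1 below it.

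Promoters were searched for the core of the ISRE and of the gamma-activated site. RefSeq promoter windows, from 250 bases before to 50 bases after the gene start on GRCh38.p14, were matched by symbol or synonym for 33 of the 43 members. The windows of IRF2, IRF7, DHX58, OAS2, OASL, IFIT2, IFITM2, MX2, USP18 and GBP2 were not matched. Where a member had several windows, as IFI16, PARP9 and IFI44 did, only the first listed was searched. The ISRE core, searched on both strands as GAAANNGAAA, occurred in 19 of the 33 windows (57.6%), against 3.57% of all 35116 windows. The core of a gamma-activated site, TTCNNNGAA, which reads the same on both strands, occurred in 9 of the 33 (27.3%), against 7.66% of all windows, and overlapped an ISRE core in 3 members. The ISRE core was present in 7 of 10 matched members that fell at 10 μM, in 3 of 3 that rose and in 8 of 18 that were not called. It thus occurred in members that moved in either direction. Only 3 members that rose were matched, and GBP2 and IRF2, which fell, were not, so a separation of the directions could not be assessed. The core of the gamma-activated site was present in 4 of 10 that fell, 0 of 3 that rose and 4 of 18 that were not called. The following stretches of 60 bases, with the ISRE cores of either strand in capitals, come from members that fell (BST2, IFI44L), rose (ISG15, HERC5, IFI6) or were not called (IFIT3) at 10 μM, and are shown because the same letters stand before genes that moved in opposite directions.
BST2: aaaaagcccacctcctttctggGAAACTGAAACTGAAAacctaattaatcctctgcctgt
IFI44L: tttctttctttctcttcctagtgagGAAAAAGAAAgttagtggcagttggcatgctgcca
ISG15: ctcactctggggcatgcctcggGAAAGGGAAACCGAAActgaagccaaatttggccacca
HERC5: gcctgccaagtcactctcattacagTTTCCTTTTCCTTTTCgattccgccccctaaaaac
IFI6: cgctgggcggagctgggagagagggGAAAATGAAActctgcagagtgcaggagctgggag
IFIT3: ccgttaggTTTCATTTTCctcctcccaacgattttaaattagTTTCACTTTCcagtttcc
They lie at chr19:17405723-17405782, minus strand (BST2), chr1:78620259-78620318, plus strand (IFI44L), chr1:1013362-1013421, plus strand (ISG15), chr4:88456969-88457028, plus strand (HERC5), chr1:27672314-27672373, minus strand (IFI6) and chr10:89327833-89327892, plus strand (IFIT3), and are printed in the direction of the gene. None of the 6 overlaps an exon of its gene in GENCODE release 29. Those of ISG15 and IFI44L lie inside the annotated gene span, in an intron of longer transcripts, and the other 4 lie outside the gene. BST2, ISG15 and HERC5 each carry 2 ISRE cores that overlap one another.

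The members differed widely in their basal level. Length here is the union of the exons of all annotated transcripts of a gene. The order per kb therefore depends on which transcripts the cells use, which was not tested. Per kb of exon, IFITM3, a membrane protein that restricts virus entry, was the highest in DMSO at 123 CPM ± 3.62 (SD, n = 3). IFITM2 (20.2 ± 0.259), the mitochondrial protein IFI6 (19.7 ± 1.41), the DNA sensor IFI16 (18.7 ± 0.325) and IFI35 (17.3 ± 0.816) followed, and IFITM2 and IFI6 differed by less than the spread of IFI6. IFI44 (10.2 ± 0.197), the exonuclease ISG20 (10.1 ± 0.665) and OAS3 (9.68 ± 0.145) came next, with IFI44 and ISG20 not separated beyond their spread. At the low end were IFI44L (0.214 ± 0.0426), XAF1 (0.160 ± 0.0668), RSAD2 (0.0358 ± 0.0327) and IFI27 (0.0280 ± 0.0106). The spreads of IFI44L and XAF1 overlapped, as did those of RSAD2 and IFI27. RSAD2, which encodes the antiviral enzyme viperin, and IFI27 did not pass the filter on low counts. RSAD2 had 6, 17 and 2 counts in DMSO, 0, 4 and 5 at 5 μM and 53, 3 and 0 at 10 μM, so its higher mean at 10 μM rests on replicate 1. IFI27 had between 0 and 13 counts in any library. The summed level of all 43 members was 1095 to 1112 CPM in DMSO, 980 to 1030 at 5 μM and 915 to 972 at 10 μM, with no overlap between the groups. Abundant members weigh most in this sum, so it does not show that the list fell as a whole.

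**Figure D2:**
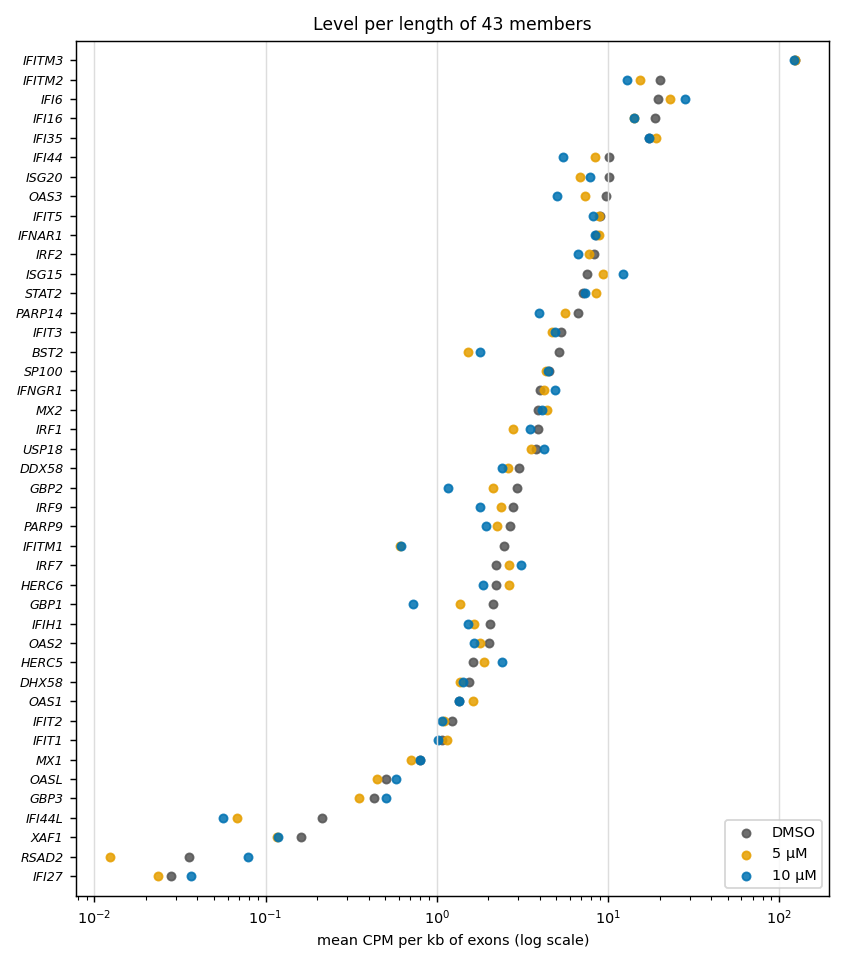
Mean level of the 43 members in DMSO, 5 μM and 10 μM TP-472 (CPM per kb of exon, log scale, 3 libraries per point), ordered by the level in DMSO. IFITM3 stands highest at 123 CPM per kb in DMSO, IFI27 and RSAD2 lowest, and the points of GBP1, GBP2, BST2, IFITM1 and IFI44L shift left with TP-472.

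The first comparison asked which members changed at 10 μM TP-472 against DMSO. The guanylate-binding proteins GBP1 and GBP2, the virus restriction factors IFITM1 and BST2, OAS3, IFI44, IFI44L, PARP9, PARP14, IFI16 and the transcription factors IRF9 and IRF2 fell, while ISG15, its ligase HERC5 and IFI6 rose. In RNA from whole cultures, a change in every cell and a change in the share of cells that express a gene cannot be told apart. These are 12 of 41 tested members lower (29.3%), against 18.0% of all tested genes lower, and 3 of 41 higher (7.32%), against 16.4% of all genes. The median log2 fold change was -0.15 over the members and 0.011 over all genes tested. With a fold change of at least 1.5 as well, 9 were lower and 1, ISG15, was higher, against 10.5% and 8.57% of all genes. In 15 members all 3 libraries at 10 μM lay below all 3 in DMSO (26.0% of all genes did) and in 5 above (23.4%). Without 10 μM replicate 1, 16 members were lower and 5 higher (25.8% and 23.0% of all genes), and without DMSO replicate 3, 7 were lower (12.7% of all genes). A fit of only the DMSO and 10 μM libraries called 10 lower and 2 higher (14.4% and 12.7% of all genes).

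At 5 μM TP-472 against DMSO, 7 of 41 members were lower (17.1%, against 5.81% of all genes), namely BST2, GBP1, GBP2, IFI16, IFITM1, IRF1 and ISG20, and 0 were higher (4.40% of all genes). At an unadjusted p under 0.05, STAT2 and MX2 were higher, and DESeq2 called 1 member higher, STAT2, while limma-voom called 0. The median log2 fold change was -0.18 over the members and 0.005 over all genes. With a 1.5-fold limit the calls were BST2, GBP1 and IFITM1, all lower, and 0 were higher (2.72% of all genes lower and 2.14% higher). In 15 members all 3 libraries at 5 μM lay below DMSO (25.0% of all genes did) and in 8 above (23.7%). The number lower at 5 μM moved with single libraries. It was 2 without DMSO replicate 1, 2 or 3 (2.69%, 2.43% and 2.50% of all genes were lower in these fits). It was 2 without 5 μM replicate 1, 3 without replicate 2 and 4 without replicate 3 (2.86%, 2.99% and 2.86% of all genes), so the share of all genes fell as well. Without 10 μM replicate 1, which shares the estimate of spread, 13 members were lower and 3 higher (17.6% and 16.5% of all genes). In a fit of only the DMSO and 5 μM libraries, 14 were lower and 6 higher (20.7% and 19.3% of all genes). Both comparisons share the 3 DMSO libraries, so their values are given side by side and not as separate support.

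**Figure D3:**
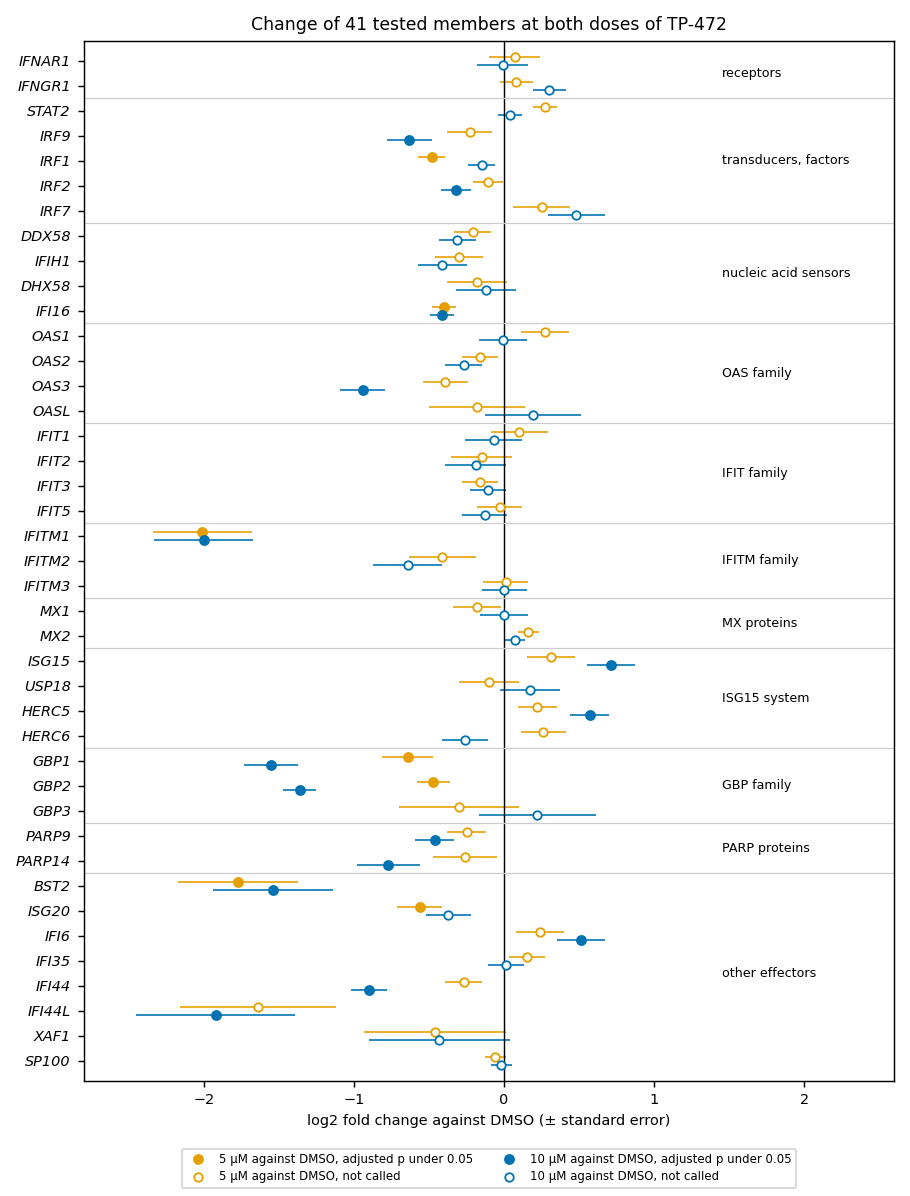
Log2 fold change against DMSO (horizontal axis, ± SE) of the 41 tested members at 5 μM (orange) and 10 μM (blue) TP-472, grouped by role. Filled points have an adjusted p under 0.05. IFITM1, BST2, GBP1, GBP2 and IFI44L lie far to the left at 10 μM, the IFIT and MX genes lie near zero, and ISG15, HERC5 and IFI6 lie to the right.

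Neither receptor chain on the list was called at either dose. IFNAR1 had 51.9, 55.4 and 53 CPM in DMSO, 53, 55 and 60.7 at 5 μM and 37, 55.9 and 65.9 at 10 μM. The 3 libraries at 10 μM spread on both sides of DMSO, and the log2 fold change of -0.01 became 0.19 without replicate 1 (adjusted p = 0.05, just inside the limit). IFNGR1 had 12.4, 13.2 and 13.9 CPM in DMSO, 15, 12.6 and 14.3 at 5 μM and 14.9, 17.4 and 16.1 at 10 μM. All libraries at 10 μM were above DMSO, by 0.30 log2 units (SE 0.11, adjusted p = 0.0538), and without replicate 1 the adjusted p was 0.00946.

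Among the signal transducers and transcription factors, IRF9, the DNA-binding subunit of the complex that acts at ISREs, fell at 10 μM. It had 9.86, 9.9 and 12 CPM in DMSO, 8.3, 8.77 and 10.0 at 5 μM and 7.54, 7.4 and 5.58 at 10 μM. Every 10 μM library was below every DMSO library, and the fall was 1.55-fold (log2 -0.63, SE 0.15, adjusted p = 0.0103), lost narrowly without DMSO replicate 3 (adjusted p = 0.0517). In GENCODE, 48.4% of the exonic length of IRF9 is shared with a second gene on the same strand, AL136295.5. The counts of IRF9 were whole in every library, so no sign of reads split between genes was seen. Whether reads of AL136295.5 were counted to IRF9 is not known. STAT2, its partner, was not called at 10 μM. It had 43.6, 41.5 and 45.1 CPM in DMSO, 52.5, 49.4 and 55 at 5 μM and 42.4, 43 and 48.3 at 10 μM. The 5 μM libraries were above DMSO (log2 0.27, SE 0.08, adjusted p = 0.0694) and those at 10 μM overlapped it.

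IRF1, an activator of interferon-induced genes, was lowest at the middle dose. It had 31.9, 28.3 and 31 CPM in DMSO, 23.3, 20.6 and 21.6 at 5 μM and 29.4, 26.8 and 26.1 at 10 μM. It fell 1.39-fold at 5 μM (log2 -0.48, SE 0.09, adjusted p = 0.00831, and 0.0532 without DMSO replicate 1) and overlapped DMSO at 10 μM. Without 10 μM replicate 1 it was called lower at 10 μM as well (log2 -0.2, SE 0.08, adjusted p = 0.0463). On the opposite strand, other genes cover 22% of its exons. IRF2, which competes with IRF1 for the same sites, had 25.3, 26.6 and 25.9 CPM in DMSO, 22.2, 24.2 and 25.4 at 5 μM and 19.5, 19.1 and 23.6 at 10 μM. All 10 μM libraries were below DMSO (log2 -0.32, SE 0.10, adjusted p = 0.0321), and the call was lost without any 1 DMSO library, 5 μM replicate 2 or 10 μM replicate 2, with upper-quartile scaling and in a fit of only the 2 groups (adjusted p up to 0.107 over all alternatives). IRF7, the factor that amplifies type I interferon, had 5.84, 5.86 and 5.86 CPM in DMSO, 6.86, 7.96 and 6.01 at 5 μM and 10.5, 7.46 and 6.44 at 10 μM. Both treated groups lay above DMSO without a call (log2 0.48 at 10 μM, SE 0.19, adjusted p = 0.0779). The log2 change at 10 μM was 0.25 without replicate 1 (SE 0.15, adjusted p = 0.2) and 0.62 without replicate 3 (adjusted p = 0.0278).

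Of the 4 nucleic acid sensors, IFI16, which detects DNA, fell at both doses. It had 97.3, 99.9 and 101 CPM in DMSO, 73.3, 71 and 81.1 at 5 μM and 72.5, 78.8 and 73.3 at 10 μM. Treated libraries did not overlap DMSO, and the fall was of similar size at 5 μM (log2 -0.40, SE 0.08, adjusted p = 0.00892) and 10 μM (log2 -0.41, SE 0.08, adjusted p = 0.00258). The call at 10 μM held in all 18 alternatives, whereas that at 5 μM was lost without DMSO replicate 2 or 3 or 5 μM replicate 1 or 2 (adjusted p up to 0.0546). The RNA sensors were not called. DDX58, which encodes RIG-I, had 12.3, 12.8 and 14 CPM in DMSO, 12, 11.7 and 10.1 at 5 μM and 9.71, 11.8 and 10.2 at 10 μM. IFIH1, which encodes MDA5, had 10.3, 10.6 and 10.3 CPM, then 9.73, 8.33 and 7.25, then 6.49, 7.75 and 9.29. In both genes every treated library was below DMSO, with adjusted p = 0.0683 for DDX58 and 0.0684 for IFIH1 at 10 μM. DHX58, which encodes LGP2, a regulator of both, overlapped between groups with 5.94, 5.82 and 6.15 CPM in DMSO, 6.81, 4.45 and 4.54 at 5 μM and 6.51, 5.44 and 4.54 at 10 μM.

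The guanylate-binding proteins, GTPases induced by type II interferon that attack vacuoles of pathogens, were split, with GBP1 and GBP2 lower at both doses and GBP3 not called. GBP1 had 11.5, 10.6 and 9.76 CPM in DMSO, 7.6, 6.7 and 6.14 at 5 μM and 2.81, 4.38 and 3.69 at 10 μM. The 3 groups did not overlap. The fall was 1.56-fold at 5 μM (log2 -0.64, SE 0.17, adjusted p = 0.0416) and 2.93-fold at 10 μM (log2 -1.55, SE 0.18, adjusted p = 0.000132). The call at 5 μM was lost without any 1 DMSO or 5 μM library, with no filter on low counts and with a replicate block (adjusted p up to 0.168 over all alternatives). GBP2 had 19.3, 18.4 and 18.3 CPM in DMSO, 12.9, 12.9 and 14.5 at 5 μM and 6.34, 7.84 and 7.56 at 10 μM. Its groups also did not overlap, with a fall of 1.39-fold at 5 μM (log2 -0.47, SE 0.11, adjusted p = 0.0209) and 2.57-fold at 10 μM (log2 -1.36, SE 0.11, adjusted p = 1.42e-05). The 5 μM call was lost without any 1 DMSO library or 5 μM replicate 1 or 2 (adjusted p up to 0.105). GBP3 had 2.29, 1.75 and 1.49 CPM in DMSO, 0.657, 1.99 and 1.85 at 5 μM and 2.38, 1.71 and 2.38 at 10 μM. It overlapped between groups and had a log2 fold change of 0.22 at 10 μM with a large error (SE 0.39, adjusted p = 0.701). The GBP genes are close copies in 1 cluster on chromosome 1, and GBP1 counts were not whole in 5 of 9 libraries, so reads could be split between them.

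The IFITM proteins, which block fusion of viruses with the cell, were split. IFITM1 had 3.2, 2.14 and 2.65 CPM in DMSO, 0.745, 0.736 and 0.493 at 5 μM and 0.847, 0.615 and 0.530 at 10 μM. It fell about as far at 5 μM (4.04-fold, log2 -2.01, SE 0.33, adjusted p = 0.00442) as at 10 μM (4.0-fold, log2 -2.00, SE 0.33, adjusted p = 0.00132), without overlap, and both calls held in all 18 alternatives. IFITM2 had 30.8, 31.6 and 31.3 CPM in DMSO, 23.2, 22.9 and 24.6 at 5 μM and 30.0, 15.5 and 14.9 at 10 μM. Replicate 1 at 10 μM was close to DMSO, and its log2 change of -0.64 (SE 0.23, adjusted p = 0.053) became -1.04 (SE 0.08, adjusted p = 1.53e-08) without that library. IFITM3 had 168, 160 and 169 CPM in DMSO, 170, 164 and 168 at 5 μM and 215, 148 and 133 at 10 μM. Its log2 change of 0.00 at 10 μM (SE 0.15, adjusted p = 0.989) became -0.24 (SE 0.05, adjusted p = 0.000695) without replicate 1. Annotated exons of IFITM1 and IFITM2 overlap on the same strand (32.5% and 22.7% of their lengths), and their counts were not whole in 8 of 9 libraries, so the share of reads given to each is uncertain. The same holds for IFITM3, whose counts were not whole in 9 of 9 libraries. A gene on the opposite strand covers 21.3% of its exons.

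Of the OAS proteins, which make the activator of RNase L when they meet double-stranded RNA, only OAS3 was called. It had 80.7, 80.5 and 78.6 CPM in DMSO, 58, 60.8 and 63.6 at 5 μM and 30.5, 47.4 and 47 at 10 μM. The groups did not overlap, and the fall at 10 μM was 1.92-fold (log2 -0.94, SE 0.15, adjusted p = 0.000943; log2 -0.76 without replicate 1). At 5 μM the log2 change was -0.39 (SE 0.15, adjusted p = 0.123), which passed without 10 μM replicate 1 (adjusted p = 1.11e-05). OAS1 (5.92 to 9.53 CPM over all libraries), OAS2 (9.61 to 13.2) and the catalytically inactive OASL (1.1 to 2.63) overlapped between 10 μM and DMSO and had log2 changes of -0.01, -0.27 and 0.19.

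The 4 IFIT genes, whose proteins bind foreign RNA and which are among the strongest targets of type I interferon, were not called at either dose. IFIT1 ranged from 3.44 to 6.06 CPM over all libraries, IFIT2 from 3.46 to 5.78, IFIT3 from 10.7 to 14.6 and IFIT5 from 24.2 to 38.9. Their log2 changes at 10 μM were -0.07, -0.19, -0.11 and -0.13, with SEs of 0.19, 0.20, 0.12 and 0.15, so that each change was no larger than its error. The dynamin-like GTPases MX1 (5.36 to 7.82 CPM) and MX2 (50.0 to 58.7) overlapped DMSO at 10 μM, with log2 changes of 0.00 (SE 0.16) and 0.07 (SE 0.07).

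The ISG15 system, a ubiquitin-like protein with its ligase and protease, held both genes of the list that rose most. ISG15 had 7.26, 6.93 and 7.0 CPM in DMSO, 8.0, 8.54 and 9.71 at 5 μM and 14, 9.09 and 11.5 at 10 μM. Every treated library was above DMSO, and the rise at 10 μM was 1.63-fold (log2 0.71, SE 0.16, adjusted p = 0.00713; log2 0.54 without replicate 1). HERC5, the main ligase for ISG15, had 7.95, 7.33 and 8.04 CPM in DMSO, 9.03, 10.0 and 8.05 at 5 μM and 11.8, 9.9 and 12.9 at 10 μM. It rose 1.48-fold at 10 μM (log2 0.57, SE 0.13, adjusted p = 0.00869), also without overlap. Both 10 μM calls held in all 18 alternatives, and neither gene was called at 5 μM. USP18, which removes ISG15 and damps the type I receptor, ranged from 6.41 to 11.6 CPM, and HERC6 from 8.72 to 16.5 CPM, and neither was called.

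PARP9 and PARP14, ADP-ribosylation proteins, fell at 10 μM. PARP14 had 69, 71.5 and 70.0 CPM in DMSO, 60.3, 57.8 and 57.8 at 5 μM and 25.6, 44 and 54 at 10 μM. The groups did not overlap, the log2 change was -0.77 (SE 0.21, adjusted p = 0.0175), and it was -0.52 (SE 0.07, adjusted p = 1.84e-05) without replicate 1, the lowest library. The call was lost without DMSO replicate 2 or 3 and in a fit of only the 2 groups (adjusted p up to 0.055 over all alternatives). PARP9 had 25.1, 22.5 and 24.1 CPM in DMSO, 19.1, 18.6 and 22.4 at 5 μM and 14.2, 18.3 and 19.5 at 10 μM. It fell 1.38-fold (log2 -0.46, SE 0.13, adjusted p = 0.0199), and lost the call without DMSO replicate 1 or 3 (adjusted p up to 0.0742). Its counts were not whole in 7 of 9 libraries, so some of its reads could be split with other genes.

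Among the other effectors, BST2, which encodes tetherin and holds budding virus on the cell, fell at both doses. It had 6.02, 5.37 and 5.98 CPM in DMSO, 1.49, 1.84 and 1.77 at 5 μM and 3.59, 1.04 and 1.32 at 10 μM. All treated libraries were below DMSO, although replicate 1 at 10 μM was over the others. The fall was 3.4-fold at 5 μM (log2 -1.77, SE 0.40, adjusted p = 0.0215) and 2.92-fold at 10 μM (log2 -1.54, SE 0.40, adjusted p = 0.0136), and at 10 μM it was -2.29 (SE 0.24, adjusted p = 9.61e-07) without that replicate. The 5 μM call was lost without any 1 DMSO or 5 μM library (adjusted p up to 0.0915), while the log2 change stayed between -1.83 and -1.68.

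IFI44 and its relative IFI44L, neighbors on chromosome 1 with antiviral activity, also fell at 10 μM. IFI44 had 21, 20.9 and 20.3 CPM in DMSO, 18.1, 16.2 and 17.4 at 5 μM and 11.9, 9.11 and 12.4 at 10 μM. Its groups did not overlap, and the fall was 1.86-fold (log2 -0.90, SE 0.12, adjusted p = 0.000377). IFI44L had 2.39, 1.69 and 2.48 CPM in DMSO, 0.394, 1.2 and 0.493 at 5 μM and 0.351, 0.961 and 0.408 at 10 μM. Treated libraries were below DMSO, with a log2 change of -1.92 at 10 μM (SE 0.53, adjusted p = 0.0188) that was lost without DMSO replicate 1 or 3 or 10 μM replicate 3 (adjusted p up to 0.0652).

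IFI6, an inhibitor of apoptosis in mitochondria, rose at 10 μM. It had 18.4, 16.7 and 16 CPM in DMSO, 19.5, 21.4 and 19.2 at 5 μM and 31.8, 20.0 and 21 at 10 μM. Replicate 1 was far above replicates 2 and 3, and the log2 change of 0.51 (SE 0.16, adjusted p = 0.0358) was 0.26 (SE 0.09, adjusted p = 0.0206) without it. The call was lost without any 1 DMSO or 5 μM library and in a fit of only the 2 groups (adjusted p up to 0.122). ISG20 had 76.6, 77.9 and 68.8 CPM in DMSO, 49.9, 51.1 and 50.4 at 5 μM and 75, 49.8 and 47.8 at 10 μM. It fell 1.48-fold at 5 μM (log2 -0.56, SE 0.15, adjusted p = 0.045), a call lost without any 1 DMSO or 5 μM library and with upper-quartile scaling (adjusted p up to 0.16), and at 10 μM replicate 1 was at the DMSO level. Without that library the log2 change at 10 μM was -0.61 (SE 0.06, adjusted p = 6.07e-07), against -0.37 (adjusted p = 0.087) with it. IFI35 (29.5 to 41.1 CPM), XAF1 (0.454 to 1.39) and the nuclear body protein SP100 (53.5 to 59.9) were not called at either dose.

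**Figure D4:**
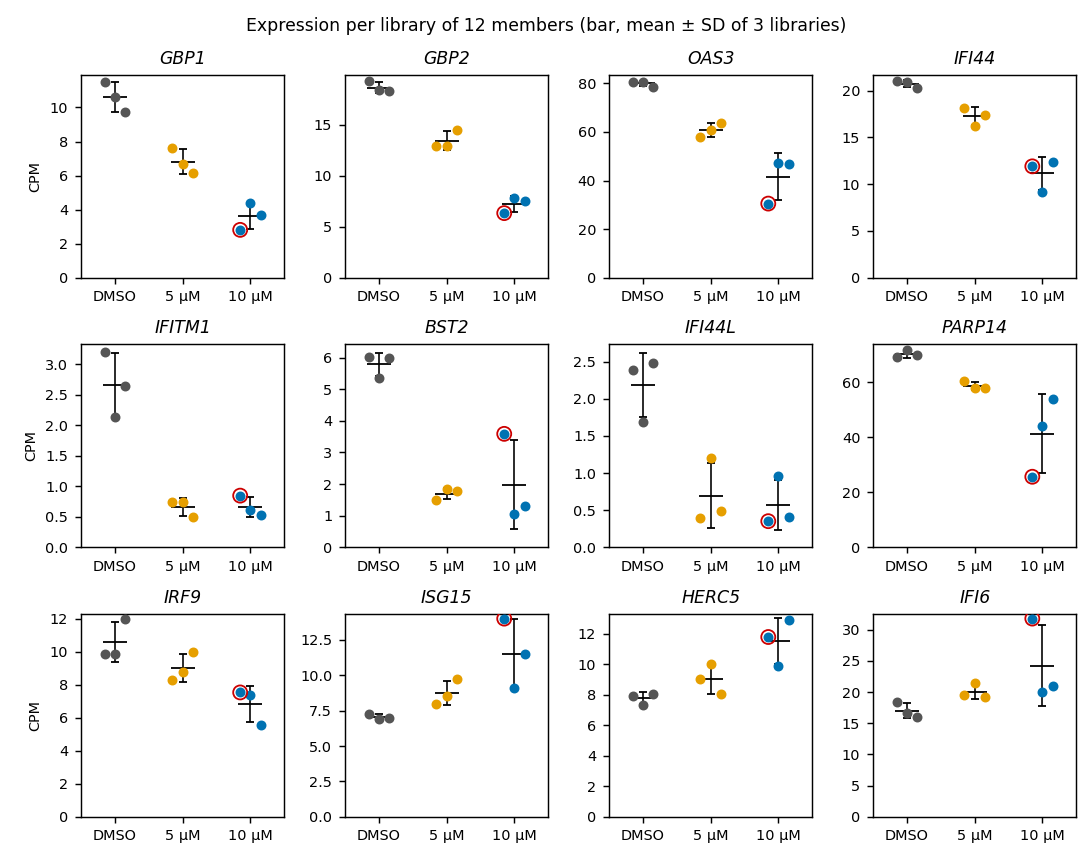
CPM of 12 members in each library (points) of DMSO, 5 μM and 10 μM TP-472, with the mean and SD of 3 libraries in black and 10 μM replicate 1 ringed in red. GBP1 and GBP2 step down with dose, IFITM1 and BST2 are low at both doses, ISG15 and HERC5 are highest at 10 μM, and the ringed library lies high for BST2 and IFI6 and low for PARP14.

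The doses were also compared with each other, to see which members differed between 5 μM and 10 μM. GBP1, GBP2, IFI44 and OAS3 were lower at 10 μM (4 of 41 members, 9.76%, against 5.53% of all genes), and IRF1 was higher (1 of 41, 2.44%, against 2.87% of all genes). With a 1.5-fold limit GBP1, GBP2 and IFI44 were lower and 0 members higher (2.59% and 1.42% of all genes). GBP2 differed by -0.89 log2 units (SE 0.11, adjusted p = 0.00128), a call that held in all 18 alternatives. GBP1 differed by -0.91 (SE 0.18, adjusted p = 0.0129), IFI44 by -0.63 (SE 0.12, adjusted p = 0.0119) and OAS3 by -0.55 (SE 0.15, adjusted p = 0.048). IRF1 differed by 0.33 (SE 0.09, adjusted p = 0.0484), and its call was lost without any library but 10 μM replicate 1 (adjusted p up to 0.176 over all alternatives). IFITM1 differed by 0.01 (SE 0.33) and BST2 by 0.22 (SE 0.40), so no dose step was detected for these genes, within wide errors. Without 10 μM replicate 1 the sign of both reversed, still without a call. IFITM1 then differed by -0.2 (SE 0.38, adjusted p = 0.755) and BST2 by -0.53 (SE 0.23, adjusted p = 0.117). The number lower was 1 without 5 μM replicate 1 and 2 without 5 μM replicate 3 (2.39% and 2.35% of all genes), and 11 without 10 μM replicate 1 (15.4% of all genes), where 1 was higher (8.80% of all genes). A fit of only the 5 μM and 10 μM libraries called 1 lower, GBP2, and 0 higher (1.38% and 0.712% of all genes). A fit of only the 2 groups lost GBP1, IFI44 and OAS3. GBP1 also lost its call without 5 μM replicate 1 (adjusted p up to 0.0916 over all alternatives), IFI44 without 5 μM replicate 1 or 3 (up to 0.0855) and OAS3 without any 1 DMSO or 5 μM library, with both other scalings or without ribosomal RNA genes (up to 0.181).

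The other genes of the pathway, 88 in 5 lists, 64 of them tested, were taken from general knowledge. They were listed with earlier results of these data known, so their shares are not separate support. At 10 μM 18 fell and 6 rose (28.1% and 9.38% of those tested, against 18.0% and 16.4% of all genes). At 5 μM 7 fell and 3 rose (10.9% and 4.69%, against 5.81% and 4.40% of all genes). Their median log2 fold change at 10 μM was -0.20. Of 22 interferon ligands, 2 had enough counts to test, and neither was called. IFNE ranged from 3.04 to 5.85 CPM and IFNA1, which has a close copy, from 0.460 to 1.33 CPM, while IFNB1 did not pass 0.285 CPM and IFNG was at 0 in every library.

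Among 8 receptor chains and receptor kinases, 1 was lower at each dose (12.5%, against 18.0% of all genes at 10 μM and 5.81% at 5 μM). None was higher (16.4% of all genes at 10 μM and 4.40% at 5 μM). The gene called was IFNGR2, the second chain of the type II receptor. It had 67, 69.6 and 70.5 CPM in DMSO, 47, 48.1 and 45.2 at 5 μM and 40.7, 40.7 and 35.5 at 10 μM. The fall, with no overlap, was 1.48-fold at 5 μM (adjusted p = 0.00189) and 1.77-fold at 10 μM (log2 -0.83, SE 0.08, adjusted p = 4.69e-05). The ligand-binding chain of the type III receptor, IFNLR1, was lower at 10 μM without a call (log2 -0.57, SE 0.21, adjusted p = 0.0642).

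Of 9 tested adaptors and kinases that lead to interferon production, 3 fell at 10 μM and 1 rose, where 18.0% of all genes fell and 16.4% rose. The kinase IKBKE fell 1.59-fold (log2 -0.67, SE 0.09, adjusted p = 0.000453), whereas the related kinase TBK1 rose 1.31-fold (log2 0.39, SE 0.08, adjusted p = 0.00555). Of 8 negative regulators, 2 fell and 1 rose (25% and 12.5%, against 18.0% and 16.4% of all genes). SOCS3, an inhibitor of receptor kinases, had 23.3, 22.9 and 22 CPM in DMSO, 11.5, 11.8 and 11.6 at 5 μM and 13, 13.9 and 11.4 at 10 μM. It fell at 5 μM (1.95-fold, adjusted p = 0.000304) and at 10 μM (1.79-fold, adjusted p = 0.000143). TRIM21, a ubiquitin ligase that binds antibodies inside cells, rose 1.49-fold at 10 μM (adjusted p = 0.00242).

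Of 37 tested further interferon-induced genes, 12 fell and 4 rose at 10 μM (32.4% and 10.8%, against 18.0% and 16.4% of all genes). The first by p were TRIM14, an adaptor of RNA sensing, and PML, which organizes nuclear bodies. TRIM14 had 31.3, 34 and 33.4 CPM in DMSO and 17.9, 19.3 and 20.8 at 10 μM (1.7-fold lower, log2 -0.77, SE 0.08, adjusted p = 0.000107). PML had 108, 109 and 110 CPM in DMSO and 62.2, 72.2 and 72.3 at 10 μM (1.58-fold lower, log2 -0.66, SE 0.08, adjusted p = 0.000243). In both genes the 5 μM libraries lay between the other groups.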

How the data were processed

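mRNA from A375 cells was sequenced on an Illumina instrument, in 9 libraries. The authors deposited expected counts per gene symbol, RSEM estimates with no scaling between libraries. The submitters' processing notes name RSEM 1.2.15, Bowtie2 2.1.0 and hg38. For the annotation, strand setting and filters of the counting, the sources used here give nothing. In the methods there is oligo-dT purification and in the design text depletion of ribosomal RNA, and which was used was not settled. Between 10.6% and 13.8% of values per library were not whole, and all were rounded.

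Each gene was tested in edgeR 4.0.16 under R 4.3.3 (TMM, filterByExpr, quasi-likelihood F test, 1 fit of 3 groups of 3, Benjamini-Hochberg adjustment over 16417 genes). SE was derived as the absolute log2 change over the root of F. The study's methods name no RNA-seq test. The code was tested on simulated data. DESeq2 1.42.0 and limma 3.58.1 (voom) were alternatives, with other scaling, filters, a fold limit of 1.5, fits of 2 groups, a replicate block and each library left out. Lengths and overlaps came from GENCODE 29, promoters from RefSeq. Python 3.11.15 made tables and figures. Libraries of a group differed from one another by more than sampling noise.

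The result for 1 gene is left out here. Members and lists were chosen with earlier results of these data known. Library values are given for members called with at least 1.5-fold at either dose and for receptors, factors and sensors. For each context list the 2 genes with the smallest p at 10 μM are named. Other members were chosen for full values after their results were seen. Limits on counting precision follow from 42483091 to 51298130 counts per library.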

Additional observations from a re-analysis of the deposited data

How the results depend on the processing

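Over all alternatives run, the median log2 fold change of the members lay between -0.2 and -0.11 at 10 μM, -0.22 and -0.14 at 5 μM and -0.1 and -0.03 between doses. The number of members lower at 10 μM was 9 to 13 over the alternatives that kept all libraries, and 7 to 16 when 1 library was left out. The number higher at 10 μM was 1 with a 1.5-fold limit and 2 to 5 with 1 library left out. At 5 μM, the number higher was 1 in DESeq2, 6 in a fit of only the 2 groups and 0 to 3 with 1 library left out, and the number lower was 3 with the 1.5-fold limit, 14 in a fit of only the 2 groups and 2 to 13 with 1 library left out. Between doses, IRF1 as the only member higher was lost (0 called) with no filter on low counts, limma-voom, the 1.5-fold limit, the replicate block or a fit of only the 2 groups, and 0 or 1 was called with 1 library left out. The number lower between doses was 1 in a fit of only the 2 groups and 1 to 11 with 1 library left out. IFNAR1 at 10 μM turned from -0.01 to 0.19 on the log2 scale without 10 μM replicate 1, and ranged from -0.2 to 0.19 with 1 library left out. The cause was not tested. Same-numbered libraries did not deviate together (correlations from -0.049 to 0.032), so no shared replicate effect was seen. This does not settle whether the cultures were handled in pairs. With the replicate block 3 members were higher and 13 lower at 10 μM, and 0 and 6 at 5 μM, with GBP1 lost at 5 μM (adjusted p = 0.0749) and IFITM2 gained at 10 μM (adjusted p = 0.0401). The SE at 10 μM was 0.53 for IFI44L, 0.47 for XAF1, 0.40 for BST2 and 0.39 for GBP3, and RSAD2 and IFI27 were too low to test.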
